A study of Mus musculus with 47 samples.

Results

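RNA was measured in the maxillary crest of mouse embryos after conditional loss of Ezh2, in 5 of the 47 libraries of the series. The 3 Ezh2cKO libraries and the 2 wild-type (WT) libraries were chosen by their labels, which give cranial neural crest cells of the Mx subpopulation at stage E10.5, with Mx read here as maxillary. The labels name neither the Cre driver nor the deleted exons, and they do not say whether WT embryos carried any engineered allele or whether cells of several embryos were pooled. Other groups used here for comparison were Ezh2cKO and WT cells of the frontonasal process (FNP), the mandibular part of the first arch (Md) and the second arch (PA2) at E10.5, with 3 libraries each, WT cells of the 4 subpopulations at E11.5 (3 libraries each) and WT crest progenitors of E8.5 (3 libraries). The replicates are numbered, but nothing says that they came from separate litters. The p-values below reflect the scatter within groups, estimated over all 47 libraries in 16 groups, and that scatter may be technical. Groups not named above, labelled HoxA2OE, Control and Hoxa2TempMut, entered that shared model alone.

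Cranial neural crest cells leave the neural folds and fill the facial prominences, where those of the maxillary prominence form the upper jaw, the palate and the stroma around upper teeth. Ezh2 encodes the main methyltransferase of Polycomb repressive complex 2 (PRC2), which places the silencing mark H3K27me3 on histone H3, typically at CG-rich promoters of developmental regulators. Canonical PRC1, a second Polycomb complex, reads this mark through its Cbx subunits. Crest of the first arch and of the frontonasal process is known for having no Hox expression, and Hox, Zic, T-box and Iroquois genes are classic Polycomb targets.

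The 5 libraries held 23667340, 21674909 and 24185547 counts in Ezh2cKO and 35747922 and 30495686 counts in WT, at depths within the range of the series. Mitochondrial genes took 28.3%, 27.7% and 24.9% of the counts in Ezh2cKO, against 21.8% and 22.6% in WT. Ezh2cKO replicate 3 stood apart from the other two. Its chi-square per degree of freedom, where 1 is counting noise alone, was 18.3 and 14.1 against Ezh2cKO replicates 1 and 2, while those replicates gave 5.70 against each other and the WT pair gave 6.58. It was the lowest of the 3 Ezh2cKO libraries in 66.1% of the genes called higher, and in 41.2% of all genes tested. The cause was not tested, and results that rest on this library are given without it as well. Markers of crest mesenchyme (Prrx1, Twist1, Pdgfra and 6 others) summed to 1823 to 1932 CPM (counts scaled to a common library size) in Ezh2cKO and 1944 to 1995 CPM in WT, so defining markers of the labelled cells were present in each library. Both Xist and the Y-linked genes of the sex-linked list had counts in all 5 libraries, and none of that list's 5 genes was called.

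Ezh2 (ENSMUSG00000029687, chromosome 6, 47530274 to 47595341, minus strand, GRCm38) was reduced in each Ezh2cKO library. It stood at 154, 151 and 129 CPM in Ezh2cKO and at 359 and 365 CPM in WT. The libraries of the genotypes did not overlap, and the log2 fold change (Ezh2cKO over WT throughout) was -1.33 ± 0.11 (SE, adjusted p = 6.21e-12, edgeR). Counts over the whole gene do not show how much of the remaining RNA carries the deletion. Of 11 tested components of PRC2 and its partners, 2 were called lower and 1 higher, where 3.41% of all genes tested were called lower and 6.85% higher. Besides Ezh2, Mtf2, an accessory subunit, averaged 200 ± 14.5 CPM in Ezh2cKO and 252 ± 0.348 CPM in WT (SD, n = 3 and 2 here and below). Phf19, another accessory subunit, averaged 2.67 ± 0.0859 and 1.25 ± 0.454 CPM in the same order of genotypes. The calls of Mtf2 and Phf19 ended under 8 and 6 of the 13 alternative settings, including the fit without Ezh2cKO replicate 3. Eed and Suz12, the core partners of Ezh2, and its paralog Ezh1 were not called, at log2 fold changes of -0.24, -0.16 and -0.08.

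Of 12 components of canonical PRC1, 3 were called higher and none lower. Bmi1, a core subunit, had 151, 144 and 141 CPM in Ezh2cKO and 61.7 and 62.5 CPM in WT. That is a gap far wider than the spread within either genotype, with a log2 fold change of 1.22 ± 0.13 (adjusted p = 4.06e-09). Cbx7 and Cbx8, reader subunits, rose 2.37-fold and 1.75-fold on the fitted scale, and their calls ended without WT replicate 2 for Cbx7, and without WT replicate 1, without Ezh2cKO replicate 3 or with the replicate block for Cbx8. Cbx2 and Phc1, the more abundant members named, differed little, with log2 fold changes of 0.02 and 0.10 (adjusted p = 0.971 and 0.666). The median log2 fold change over the 12 components was 0.11, beside -0.01 over all genes tested.

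Promoter sequences of 5 genes are printed for context, because PRC2 is known to act at CG-rich promoters: the deleted gene, Zic1, a gene that rose with no count in either WT library, the Hox genes Hoxa10 and Hoxc4, which had the largest fitted folds of the other listed genes with a promoter entry (both without a WT count, so that the fold depends on a prior count), and Ednrb, which had the largest called loss of the listed genes with a promoter entry after Ezh2. Each is 300 bases from RefSeq on GRCm38.p6, 250 before the start RefSeq gives and 50 after it, 5′ to 3′ on the gene's strand, with each CG dinucleotide in capitals (CG reads the same on both strands). Coordinates are chr6:47594981-47595280 (minus) for Ezh2, chr9:91365719-91366018 (minus) for Zic1, chr6:52240805-52241104 (minus) for Hoxa10, chr15:103034145-103034444 (plus) for Hoxc4 and chr14:103843652-103843951 (minus) for Ednrb. For Ezh2, Zic1 and Hoxc4 that start is of a transcript that begins inside the gene as the counted annotation bounds it.
Ezh2: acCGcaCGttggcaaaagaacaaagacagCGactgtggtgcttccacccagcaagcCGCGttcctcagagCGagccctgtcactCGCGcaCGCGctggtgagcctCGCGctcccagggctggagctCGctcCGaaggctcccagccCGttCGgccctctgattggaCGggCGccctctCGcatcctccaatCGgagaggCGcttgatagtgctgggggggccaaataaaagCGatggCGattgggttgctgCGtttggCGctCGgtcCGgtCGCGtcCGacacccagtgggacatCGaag
Zic1: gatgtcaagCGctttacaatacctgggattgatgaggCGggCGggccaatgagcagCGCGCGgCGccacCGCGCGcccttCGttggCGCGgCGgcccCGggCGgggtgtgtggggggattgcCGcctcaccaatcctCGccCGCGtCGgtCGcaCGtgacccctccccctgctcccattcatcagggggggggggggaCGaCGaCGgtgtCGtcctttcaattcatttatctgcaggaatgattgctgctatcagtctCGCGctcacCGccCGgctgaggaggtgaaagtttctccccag
Hoxa10: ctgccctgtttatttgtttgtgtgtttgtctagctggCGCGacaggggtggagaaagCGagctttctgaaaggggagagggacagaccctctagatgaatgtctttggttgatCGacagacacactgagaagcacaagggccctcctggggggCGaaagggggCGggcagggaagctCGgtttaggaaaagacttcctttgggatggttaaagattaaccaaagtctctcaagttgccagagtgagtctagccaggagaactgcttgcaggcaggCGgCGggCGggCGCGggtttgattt
Hoxc4: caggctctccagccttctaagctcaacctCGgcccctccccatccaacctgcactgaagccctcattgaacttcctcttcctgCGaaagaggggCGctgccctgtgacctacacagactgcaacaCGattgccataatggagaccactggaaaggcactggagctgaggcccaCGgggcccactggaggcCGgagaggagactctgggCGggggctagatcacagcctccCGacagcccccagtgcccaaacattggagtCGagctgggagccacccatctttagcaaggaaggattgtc
Ednrb: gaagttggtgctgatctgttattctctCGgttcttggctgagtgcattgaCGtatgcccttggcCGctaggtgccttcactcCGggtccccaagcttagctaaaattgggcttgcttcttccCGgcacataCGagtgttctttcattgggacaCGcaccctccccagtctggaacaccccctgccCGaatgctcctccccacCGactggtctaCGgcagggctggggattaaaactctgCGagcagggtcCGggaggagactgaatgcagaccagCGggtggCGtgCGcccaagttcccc
The windows hold 31 CG in Ezh2, 31 in Zic1, 12 in Hoxa10, 9 in Hoxc4 and 15 in Ednrb. Of the promoters matched to tested genes, 99.3% hold at least 1 CG and the median is 20. The matched promoters cover 55.9% of the genes tested, under the 80% needed, so a comparison of CG content between called and uncalled genes is void and none is given.

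Across 20560 genes tested, 1409 (6.85%) were called higher in Ezh2cKO and 702 (3.41%) lower, at an adjusted p under 0.05, 10.3% in either direction. Over all called genes, the fitted gains were larger than the losses. The median log2 fold change was 1.25 among genes called higher and -0.40 among genes called lower. A log2 fold change over 2 was reached by 357 of the higher genes, while 16 of the lower genes passed -2. There were 70 higher genes with no count in either WT library, whose fitted fold depends on a prior count. Of the 1409 higher genes, 611 reached 5 CPM in Ezh2cKO, and of the 702 lower genes, 642 reached 5 CPM in WT. At that level, gains did not outnumber losses in this fit, and the medians above set many genes of low level beside mostly expressed ones. The lower calls depended on the scaling. With RLE scaling in place of TMM, 1467 genes were called higher and 484 lower over all levels. The balance at 5 CPM was not counted under other settings. Without Ezh2cKO replicate 3, 1440 genes were called higher and 589 lower. With 1 WT library left out, the higher calls numbered 758 (without replicate 1) or 598 (without replicate 2), and the lower calls 239 or 124. No gene called in either direction changed sign in any of the 13 settings.

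**Figure D1:**
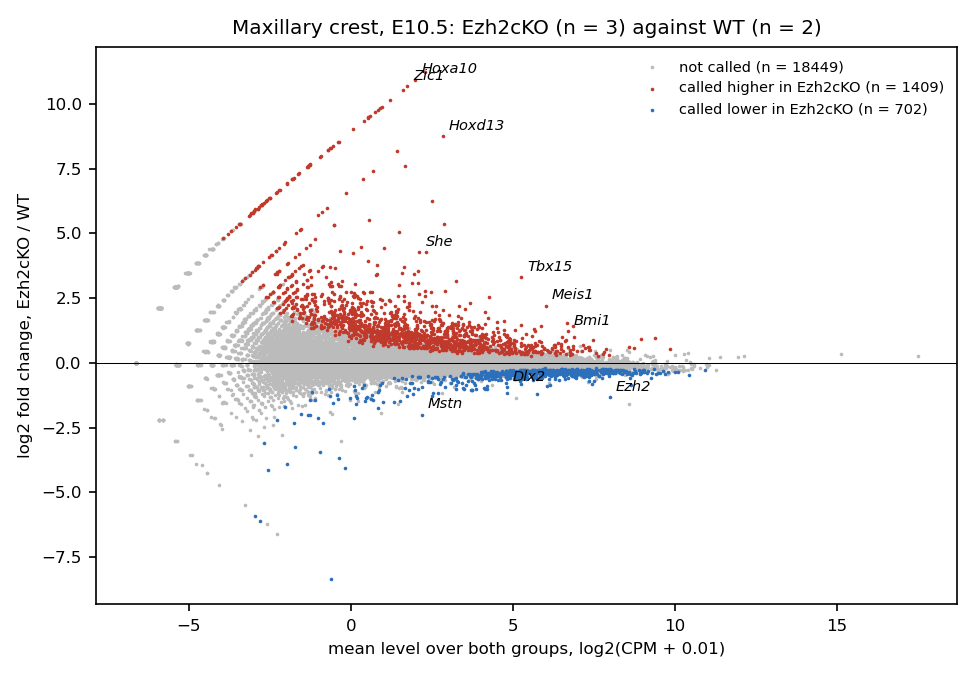
Each point is a gene, with its mean level over both genotypes on the horizontal axis (log2 of CPM plus 0.01) and its fitted log2 fold change, Ezh2cKO over WT, on the vertical axis. Red marks the 1409 genes called higher and blue the 702 called lower. The diagonal edge at the upper left holds genes with 0 WT counts, whose fitted fold depends on a prior count. Zic1 and Hoxa10 lie on that edge, and Ezh2 at -1.33 lies among abundant genes called lower.

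Hox genes made up the most extreme response. Of 39 Hox genes tested, 37 were called higher, and 34 had no count in either WT library. The highest total for any Hox gene over the WT pair was 4 counts. Hoxa10, a gene of the posterior body and limb, had 9.89, 9.93 and 4.03 CPM in Ezh2cKO and 0 in both WT libraries, at least 184-fold higher when WT is set to its floor of 3 counts over the pair (0.0432 CPM; adjusted p = 9.60e-08). Hoxd13, which patterns digits and genitalia, had 17.97, 15.7 and 8.93 CPM in Ezh2cKO and 0.0266 and 0.0315 CPM in WT. WT held 2 counts in all, for a count ratio of 487 (95% interval of counting, 134 to 4023). Such intervals, and the floors, leave out every error but that of counting.

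All 27 posterior genes, of paralog groups from 5 on, were called higher, as were 10 of the 12 anterior genes. The exceptions were Hoxb1, at 0.0412, 0 and 0.0377 CPM in Ezh2cKO, and Hoxd1, at 0.206, 0.175 and 0.0377 CPM in Ezh2cKO; both were at 0 in WT (adjusted p = 0.565 and 0.0558). The median log2 fold change was 7.58 for posterior and 7.25 for anterior genes, or 4.16 and 4.90 with genes at 0 in WT set to their bound. Each cluster took part. HoxA had 11 of 11 genes called higher, HoxB 9 of 10, HoxC 9 of 9 and HoxD 8 of 9. Per kilobase of exon, the highest level of each cluster in Ezh2cKO was 5.73 CPM/kb for Hoxd13, 2.65 for Hoxc8, 2.11 for Hoxb3 and 2.07 for Hoxa10. The lowest of each cluster were 0.147 CPM/kb in HoxA, 0.0113 in HoxB (Hoxb1), 0.145 in HoxC and 0.0516 in HoxD (Hoxd11), so levels within a cluster were far from uniform. The gain was not particular to Mx. Of the 27 posterior genes, 26 were called higher in FNP, 27 in Md and 23 in PA2. In Ezh2cKO they summed to 52.6 to 72.0 CPM in FNP, 89.5 to 155 CPM in Md and 39.5 to 94.8 CPM in PA2.

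Of other transcripts inside the clusters, 16 of 17 were called higher, the exception being Gm11539 at 39.5 CPM in Ezh2cKO and 41.1 CPM in WT. The libraries do not keep strand, so reads of these transcripts and of the Hox genes they overlap cannot be told apart, Hoxb3os and Hoxb3 included. Within 500 kb outside the clusters, 61 genes were tested, of which 4.92% were called higher and 1.64% lower, near the 6.85% and 3.41% of all genes. There, Skap2, an adaptor protein 143 kb from HoxA, rose, with a mean of 8.49 CPM in Ezh2cKO and 1.23 CPM in WT (log2 fold change 2.79 ± 0.27, adjusted p = 6.52e-10). Abi3 and Copz2 near HoxB were also called higher. Ttll6, 28.9 kb from HoxB, was called lower at 0.108 CPM in Ezh2cKO and 1.42 CPM in WT (adjusted p = 0.000991). No flanking gene of HoxC (25 tested) or HoxD (6 tested) was called.

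Hox levels differed between the Ezh2cKO libraries. The 27 posterior genes summed to 81.7, 68.3 and 34.5 CPM in Ezh2cKO and to 0.0266 and 0.0629 CPM in WT. Replicate 3 was lowest for 36 of the 39 genes, and the called genes had a median of 0.385 of the mean of the other 2 libraries. Even so, 37 of the 39 genes were higher in every Ezh2cKO library than in any WT library. The uncalled Hoxd1 was among these 37, so not every called gene was. Of all genes tested, 44.7% showed no overlap in either direction. The same library also held fewer neuronal transcripts, at a median of 0.395 of the mean of replicates 1 and 2 over the 16 markers given below, and the part of this in the Hox levels was not tested.

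**Figure D2:**
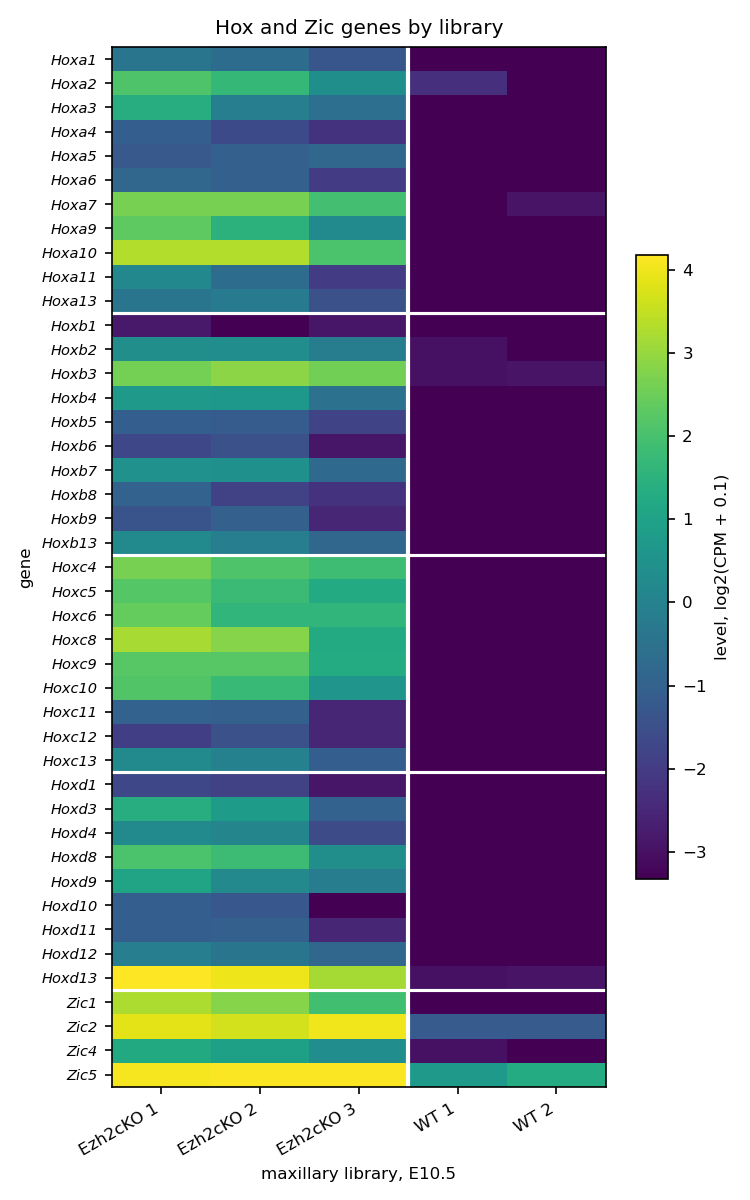
Rows are 39 Hox genes in cluster order and 4 Zic genes, columns are the 3 Ezh2cKO and the 2 WT maxillary libraries, and colour is the level as log2 of CPM plus 0.1. WT columns sit at the bottom of the scale for Hox genes, and Ezh2cKO replicate 3 is mostly darker, and so lower, than replicates 1 and 2 for Hox genes but not for Zic2 or Zic5.

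Of the Zic genes, transcription factors of the neural plate border and dorsal neural tube, the 4 examined here were called higher. Zic1 (ENSMUSG00000032368, chromosome 9, 91358058 to 91365810, minus strand), whose promoter is printed above, had 9.40, 6.91 and 3.66 CPM in Ezh2cKO and no count in WT, at least 154-fold higher (adjusted p = 1.81e-10). Zic2 reached 14.6, 12.5 and 16.02 CPM in Ezh2cKO, against 0.346 CPM in each WT library (log2 fold change 5.36 ± 0.43, adjusted p = 2.31e-11). Zic5 averaged 17.2 ± 0.508 CPM in Ezh2cKO and 1.95 ± 0.537 CPM in WT. Zic4 had 1 WT count, and since it overlaps Zic1 on the opposite strand, reads of the shared stretch cannot be told apart. The 4 genes summed to 42.9, 38.7 and 38.2 CPM in Ezh2cKO and to 1.94 and 2.67 CPM in WT. Replicate 3 was lowest of the Ezh2cKO libraries for Zic1 and Zic4 but highest for Zic2, and the median ratio of replicate 3 to the mean of the other two was 0.796. In the other subpopulations Zic1 averaged 18.6 ± 1.8 CPM in Ezh2cKO and 2.40 ± 0.60 CPM in WT for FNP, 9.12 ± 2.6 and 0.0141 ± 0.025 CPM for Md, and 6.62 ± 2.9 and 0.0328 ± 0.057 CPM for PA2, Ezh2cKO given first and n = 3 each.

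Other families of developmental regulators moved in part, where 6.85% of all genes tested were called higher and 3.41% lower. Among 13 T-box genes tested, 5 were called higher and 1 lower. Tbx15, a regulator of craniofacial and limb mesenchyme, had 76.1, 69.8 and 62.2 CPM in Ezh2cKO and 5.34 and 8.75 CPM in WT, an increase at substantial level (log2 fold change 3.31 ± 0.21, adjusted p = 8.25e-15). Tbx18, a mesenchymal T-box factor, averaged 6.996 ± 1.46 CPM in Ezh2cKO and 0.649 ± 0.0159 CPM in WT. Tbx5, known for the heart and forelimb, had 3.83, 3.41 and 2.22 CPM in Ezh2cKO and 0 and 0.0315 CPM in WT, a single WT count. Tbx20 and Tbx4 were the other members called higher. Tbx3 was the member called lower, at 137 CPM in Ezh2cKO and 224 CPM in WT (log2 fold change -0.71, adjusted p = 0.00559), while Tbx2 and Tbx22 were not called (log2 fold changes -0.25 and -0.09).

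Of 6 Iroquois genes, 4 were called higher: Irx2 and Irx1 with log2 fold changes of 2.57 ± 0.21 and 2.172 ± 0.31, and Irx5 and Irx3 with 0.77 ± 0.20 and 0.73 ± 0.20. The calls of Irx5 and Irx3 ended without WT replicate 2. Of 6 Gata genes, Gata4 and Gata6, regulators of heart and endoderm, were called higher. Gata4 had 2.14, 2.36 and 1.77 CPM in Ezh2cKO and no WT count, at least 48.4-fold higher, and Gata6 averaged 2.69 ± 0.540 CPM in Ezh2cKO and 0.174 ± 0.0207 CPM in WT. Gata2 and Gata3, which WT cells already expressed at 13.5 and 15.9 CPM, were not called (log2 fold changes 0.35 and 0.57). Of 8 Pax genes tested, Pax2, Pax7 and Pax9 were called higher. Pax2 had 2 WT counts and a count ratio of 16.5 (95% interval of counting, 4.24 to 141). Pax9, needed for palate and teeth, averaged 34.4 ± 1.71 CPM in Ezh2cKO and 24.0 ± 0.460 CPM in WT, a call that ended without either WT library.

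Regulators of neural progenitors and of unrelated lineages also appeared, mostly at low level. Of 19 neural genes tested, 6 were called higher and none lower, with a median log2 fold change of 1.28 (1.27 with bounds). En2, a midbrain and hindbrain factor, had 2.84, 3.10 and 1.88 CPM in Ezh2cKO and none in WT, at least 60.4-fold higher. Nkx6-1 of the ventral neural tube (0.774 ± 0.0442 CPM) was likewise without a WT count. Otx2, a factor of the forebrain and midbrain, averaged 3.19 ± 0.880 CPM in Ezh2cKO and 0.276 ± 0.212 CPM in WT (log2 fold change 3.45, or 4.61 without WT replicate 1). Six3 was the weakest of the named calls, which ended without either WT library. Pax6 and Neurog1, which WT cells expressed at 21.4 and 5.41 CPM, were not called (log2 fold changes 0.23 and -0.19). Of 14 tested regulators of other lineages, 6 were called higher and none lower. Foxa1 and Foxa2 of endoderm and Nkx2-5 of the heart had 0.273 to 0.554 CPM in Ezh2cKO and no WT count, and the call of Foxa2 ended without either WT library. Lhx1, a kidney and head organizer factor, averaged 1.10 ± 0.0754 CPM in Ezh2cKO and 0.129 ± 0.00502 CPM in WT. In a bulk sample, a few cells with high expression and many cells with low expression cannot be told apart.

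Some cell-cycle inhibitors rose. The lists of 15 proliferation genes and 17 p53 targets had 1 call each, where 10.3% of all genes tested were called in either direction. Of 7 inhibitors, 4 were called higher, beside 6.85% of all genes tested. Cdkn2c (p18) had 8.62, 6.87 and 7.88 CPM in Ezh2cKO and 0.798 and 0.503 CPM in WT (log2 fold change 3.56 ± 0.32, adjusted p = 9.07e-11). Cdkn2b (p15) averaged 1.34 ± 0.616 CPM in Ezh2cKO on 2 WT counts. Cdkn2a, the classic Polycomb target encoding p16 and p19, had 0.165, 0.175 and 0.0377 CPM in Ezh2cKO and none in WT (adjusted p = 0.0412), a call that ended under 5 settings. Cdkn1b (p27) averaged 35.5 ± 2.28 CPM in Ezh2cKO and 26.3 ± 0.482 CPM in WT, and its call also ended under 5 settings, the fit without Ezh2cKO replicate 3 among them. Among 15 proliferation genes none was called higher and Mcm6, a subunit of the replication helicase, was called lower at 133 ± 3.67 CPM in Ezh2cKO and 187 ± 1.15 CPM in WT. Mki67 and Top2a were not called, with log2 fold changes of 0.04 and -0.10. Of 17 p53 targets, 1 was called higher (Pmaip1, which encodes the death factor Noxa, 11.2 ± 2.28 CPM in Ezh2cKO and 5.96 ± 2.33 CPM in WT), and its call ended under 4 settings, including without Ezh2cKO replicate 3.

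**Figure D3:**
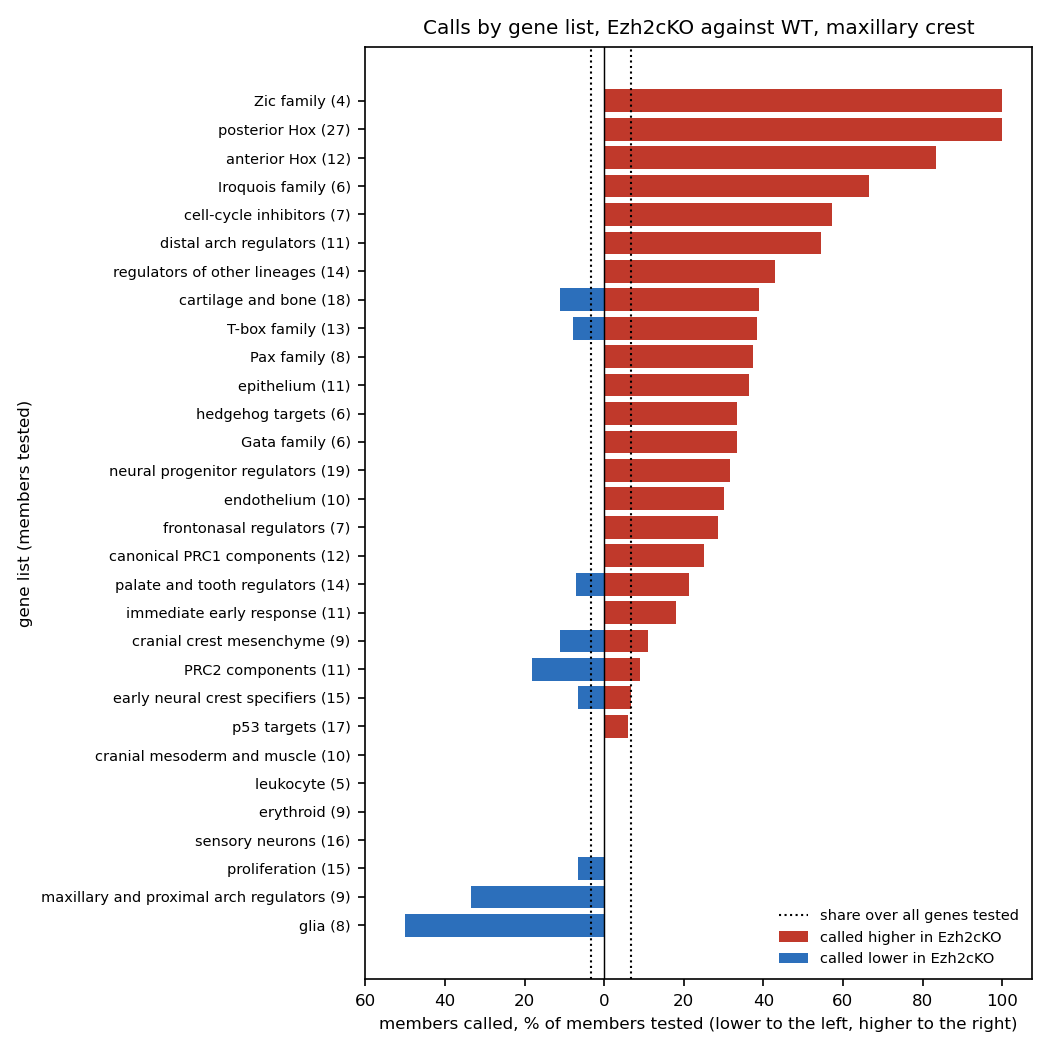
Bars give the percent of tested members called higher (red, to the right) and called lower (blue, to the left) in Ezh2cKO for 30 gene lists, with the number tested in brackets; dotted lines mark the 6.85% called higher and 3.41% called lower over all genes tested. Zic and Hox lists reach or approach 100%, and glia, the maxillary and proximal arch regulators and proliferation genes have calls on the lower side alone.

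Some regulators of position in the jaw changed in level. Dlx1 and Dlx2, homeobox genes of the whole first arch that act alone in its upper part, fell. Dlx1 had 44.1, 45.5 and 51.2 CPM in Ezh2cKO and 82.4 and 91.9 CPM in WT (log2 fold change -0.89 ± 0.13, adjusted p = 6.68e-06). Dlx2 had 18.3, 15.5 and 23.7 CPM in Ezh2cKO and 36.1 and 37.9 CPM in WT (log2 fold change -0.95 ± 0.18, adjusted p = 0.000228). Both were lower in every Ezh2cKO library. In all, 3 of 9 maxillary and proximal arch regulators were called lower and none higher. The third was Nr2f2, a nuclear receptor, at 76.5 ± 3.17 CPM in Ezh2cKO and 101 ± 8.48 CPM in WT, whose call ended under 8 settings, the fit without Ezh2cKO replicate 3 among them. Lhx6 and Lhx8, LIM factors of oral mesenchyme, missed the threshold with log2 fold changes of -0.48 and -0.50. Meis2, needed for the palate, had a log2 fold change of 0.14 (adjusted p = 0.503). Of the same 9 regulators, 2 were called lower and 1 higher in Md, and 3 lower and 2 higher in PA2. In FNP, 5 were called higher and none lower.

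Some genes of the lower jaw rose, at levels that were low in WT. Of 11 distal arch regulators, 6 were called higher (Pitx1, Gsc, Dlx4, Dlx3, Dlx6 and Dlx5), beside 6.85% of all genes tested, and none lower. Their median log2 fold change was 1.16. The gain was not particular to Mx, since in FNP 6 of the 11 were called higher and none lower (median 1.13). In Md none was called higher and 1 lower, and in PA2 1 higher and 2 lower (medians -0.22 and -0.19). Gsc, a target of endothelin signalling in the mandibular arch, had 1.73, 2.54 and 1.62 CPM in Ezh2cKO and 0.292 and 0.157 CPM in WT (log2 fold change 3.07 ± 0.38, adjusted p = 1.31e-07). Pitx1, a mandibular and hindlimb factor, had 6.68, 5.51 and 4.22 CPM in Ezh2cKO and 0.745 and 0.189 CPM in WT. Its log2 fold change of 3.48 became 4.82 without WT replicate 1 and 2.87 without WT replicate 2. Dlx3 averaged 3.99 ± 0.0432 CPM in Ezh2cKO and 1.78 ± 0.415 CPM in WT. These levels remained far below those of WT mandibular cells, where Dlx3 averaged 43.9 ± 6.7 CPM and Gsc 8.71 ± 1.0 CPM (n = 3). Msx1 and Ednra, the most abundant members not called, had log2 fold changes of -0.48 and 0.09. The calls of Dlx3 and Dlx4 ended without WT replicate 1.

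Of 7 frontonasal regulators, Pax7 and Six2 were called higher. Beside each list count here stand the 6.85% called higher and 3.41% called lower over all genes tested. Six2, a mesenchymal progenitor factor, had 79.2, 62.8 and 73.7 CPM in Ezh2cKO and 31.2 and 26.8 CPM in WT (log2 fold change 1.31 ± 0.24, adjusted p = 0.000154). Alx4 and Pax3 were not called (log2 fold changes 0.08 and -0.50). Among 14 palate and tooth regulators, Osr2, Shox2 and Pax9 were called higher and Fgf10 lower. Osr2, needed for palate growth, averaged 12.7 ± 1.67 CPM in Ezh2cKO and 3.48 ± 0.300 CPM in WT, while Fgf10, a mesenchymal growth factor, averaged 11.6 ± 1.32 CPM in Ezh2cKO and 22.8 ± 3.08 CPM in WT. The call of Fgf10 ended without WT replicate 1. Among 18 cartilage and bone genes, 7 were called higher and 2 lower. Runx2, the osteoblast master regulator, averaged 63.7 ± 11.4 CPM in Ezh2cKO and 40.0 ± 2.69 CPM in WT, and Runx3, Acan and Spp1 averaged 1.11, 0.682 and 1.72 CPM in Ezh2cKO and 0.191, 0.0846 and 0.457 CPM in WT. The calls of Runx2 and Spp1 ended without either WT library, that of Spp1 also without Ezh2cKO replicate 3, and that of Runx3 without WT replicate 2, where its log2 fold change of 2.43 became 1.77 (4.04 without WT replicate 1). The 2 lower genes were Sox5 and Sox6, cartilage partners of Sox9, with log2 fold changes of -0.60 and -0.45, and Col2a1 and Twist1 were not called (-0.01 and -0.11). Of 6 hedgehog targets, Foxd1 and Foxf1 were called higher with log2 fold changes of 1.46 and 1.04, while Ptch1 and Gli1, the standard readouts of that pathway, had 0.00 and 0.36 (adjusted p = 0.995 and 0.326). The call of Foxf1 ended without WT replicate 2. Of 15 early neural crest specifiers, Zic1, counted above with the Zic genes, was the member called higher. That share of 6.67% was near the 6.85% of all genes tested. Tfap2c was the member called lower, a call that ended without WT replicate 1.

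Other genes with large gains and at least 5 CPM were of mixed kind. Bmp3, a bone morphogenetic protein that dampens signalling by others, had 7.09, 7.17 and 1.96 CPM in Ezh2cKO and 0.213 and 0.0944 CPM in WT (log2 fold change 5.05 ± 0.53, adjusted p = 3.69e-09). Replicate 3 was the lowest of the Ezh2cKO libraries but still above both WT libraries, and the log2 fold change became 5.77 without WT replicate 1. She, an adaptor protein, averaged 8.20 ± 1.28 CPM in Ezh2cKO and 0.407 ± 0.176 CPM in WT. Lhx9, a LIM homeobox gene, averaged 5.82 ± 1.48 CPM in Ezh2cKO and 0.446 ± 0.00817 CPM in WT. Leaving out Gm and Rik symbols, the 12 genes of largest gain with at least 5 CPM in Ezh2cKO and no overlap between libraries kept their call in each of the 13 settings, Hoxb3os with a log2 fold change of 6.24, or 7.38 without WT replicate 1. Of the symbols left out, Gm11538 inside HoxB averaged 9.66 CPM in Ezh2cKO with no WT count, and Gm10567 averaged 9.37 CPM in Ezh2cKO and 0.497 CPM in WT, gains that would have placed both among the 12.

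The losses were smaller and fewer passed -1 on the log2 scale (63 genes). Mstn, which encodes the growth inhibitor myostatin, had 1.86, 2.67 and 0.980 CPM in Ezh2cKO and 6.62 and 7.93 CPM in WT (log2 fold change -1.997 ± 0.41, adjusted p = 0.000652), the largest loss among named genes of at least 5 CPM. Heyl, a Notch target, had 16.7, 19.6 and 15.3 CPM in Ezh2cKO and 42.0 and 35.3 CPM in WT (log2 fold change -1.17 ± 0.23, adjusted p = 0.000550). Sema3c, a secreted guidance cue, averaged 4.02 ± 0.487 CPM in Ezh2cKO and 8.96 ± 0.119 CPM in WT. Car2 and Car12, carbonic anhydrases, averaged 3.30 ± 0.678 and 8.71 ± 1.07 CPM in Ezh2cKO and 7.99 ± 1.11 and 18.04 ± 4.04 CPM in WT. Cttnbp2, SNORD24, Prdm12, Cdh19, Erbb3 and Tmem132b completed the 12 with a named symbol, with log2 fold changes of -1.21 to -1.02. The transcript 2310058D17Rik, left out for its symbol, had -1.14. Prdm12, a factor of nociceptive sensory neurons, had 8.95, 10.8 and 5.61 CPM in Ezh2cKO and 18.5 and 16.5 CPM in WT, but its call ended under 8 settings, and those of Cdh19 and Tmem132b under 4 and 5, the fit without Ezh2cKO replicate 3 among them. Those of Car12, Cttnbp2 and SNORD24 ended without WT replicate 2.

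The maxillary libraries carried transcripts of ganglia at a level the other subpopulations did not. Markers of sensory neurons (16 genes, among them Neurod1, Pou4f1, Isl1 and Nefm) summed to 648, 742 and 334 CPM in Ezh2cKO and 479 and 426 CPM in WT of Mx, against 83.4 to 128 CPM in Ezh2cKO and 43.0 to 120 CPM in WT of the other 3. None of the 16 was called in Mx (median log2 fold change 0.33). Glial markers (8 genes) summed to 74.4, 75.8 and 41.8 CPM in Ezh2cKO and 128 and 107 CPM in WT, and 4 were called lower: Cdh19, Erbb3, Ednrb and Fabp7. Erbb3, the neuregulin receptor of Schwann cell precursors, had 15.8, 13.3 and 7.39 CPM in Ezh2cKO and 26.8 and 22.6 CPM in WT (log2 fold change -1.02 ± 0.21, adjusted p = 0.000853). Sox10, the defining glial factor, missed the threshold (log2 fold change -0.84, adjusted p = 0.0586). The calls of Cdh19, Ednrb and Fabp7 ended without Ezh2cKO replicate 3 and without either WT library. Fewer glial cells and less of these transcripts per cell cannot be told apart, and the part of glial RNA in other lower genes was not tested.

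Of the markers of other cell types, those of erythroid cells were abundant, and the other lists summed to low levels. Epithelial markers (11 tested, 4 called higher) summed to 9.72 to 11.2 CPM in Ezh2cKO and 3.18 to 4.89 CPM in WT. The members called were Epcam, Krt18, Grhl2 and Cldn7, of which Grhl2 was not called without WT replicate 1 and Cldn7 without either WT library. Krt5 was at 0 in both WT libraries, while Trp63 and Cdh1 stood at 0.302 and 0.111 CPM in Ezh2cKO and 0.588 and 0.202 CPM in WT. Endothelial markers (10 tested, 3 called higher, Flt1, Kdr and Tek) summed to 8.06 to 11.4 CPM in Ezh2cKO and 4.23 to 5.25 CPM in WT, with the calls of Kdr and Tek ending under 3 and 6 settings (for Tek also without Ezh2cKO replicate 3) and Cdh5 not called. Cldn5 was at 0 in all 3 Ezh2cKO libraries. Erythroid markers summed to 187 to 346 CPM in Ezh2cKO and 346 to 417 CPM in WT, leukocyte markers to 5.77 to 6.03 and 5.69 to 6.14 CPM, and muscle and mesoderm markers to 9.69 to 10.98 and 11.2 to 13.2 CPM, with no member called in any of these lists and Tcf21 at 0 in both WT libraries. Of 11 immediate early genes, which rise on handling stress, Fos and Ier3 were called higher, beside 6.85% of all genes tested. Fos averaged 21.3 ± 2.5 CPM in Ezh2cKO and 10.8 ± 1.26 CPM in WT. The calls of Fos and Ier3 ended under several settings, including without Ezh2cKO replicate 3. Of 9 crest mesenchyme markers, Vim was called higher (log2 fold change 0.56, a call that ended without WT replicate 2 or Ezh2cKO replicate 2) and Dlx2 lower.

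**Figure D4:**
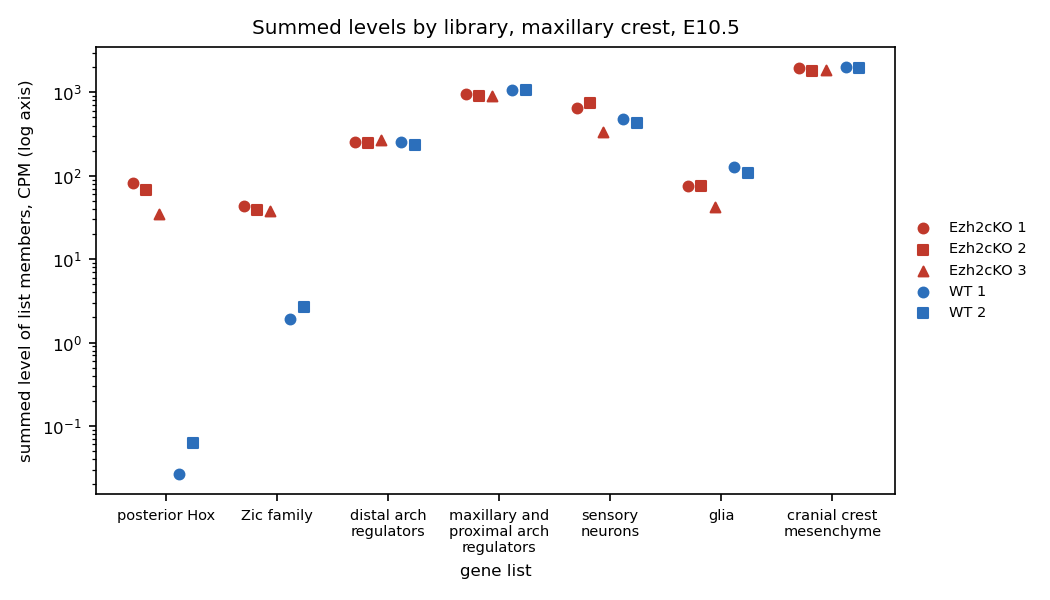
Points are the summed levels of 7 gene lists in each maxillary library, in CPM on a log axis, with the 3 Ezh2cKO libraries in red left of the 2 WT libraries in blue. Posterior Hox and Zic sums are apart by genotype, glia are lower in Ezh2cKO, and the neuron sum of Ezh2cKO replicate 3, at 334 CPM, lies below both WT libraries while replicates 1 and 2 lie above them.

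Many of the gains were met in the other subpopulations too. Their comparisons share no library with that of Mx, but they share its model, and so its gene filter, scaling and estimate of spread. Called higher were 1022 genes in FNP (4.97%), 1375 in Md (6.69%) and 1365 in PA2 (6.64%), and called lower were 376 (1.83%), 448 (2.18%) and 520 (2.53%) in the same order. Of the 1409 genes higher in Mx, 48.1% were also higher in FNP (66.3% of the FNP genes), 62.2% in Md (63.7% of the Md genes) and 59.1% in PA2 (61.0% of the PA2 genes), and 501 were higher in all 4. Of the 702 lower genes, 14.0% were also lower in FNP (26.1% of the FNP genes), 34.8% in Md (54.5%) and 32.8% in PA2 (44.2%), and 43 were lower in all 4. Opposite calls were rare, with at most 10 genes in any pairing and direction.

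The effect in Mx was tested against the mean effect in FNP, Md and PA2. It was called larger for 29 genes (0.141%) and smaller for 50 (0.243%), and 1053 genes had an unadjusted p under 0.05. Leaving out 1 Mx library at a time gave 8 to 55 larger and 21 to 44 smaller effects. Meis1, a Hox cofactor, had 120, 114 and 84.7 CPM in Ezh2cKO and 27.1 and 18.7 CPM in WT of Mx (log2 fold change 2.21 ± 0.15). Elsewhere it averaged 115 ± 9.9 CPM in Ezh2cKO and 47.5 ± 1.5 CPM in WT of FNP, 164 ± 25 and 81.3 ± 5.3 CPM in Md, and 298 ± 9.3 and 386 ± 19 CPM in PA2. The difference of log2 effects was 1.57 ± 0.16 (adjusted p = 3.69e-08), and WT Mx had the lowest level of the 4.

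Bmp3 showed the largest such difference among the named genes, 3.22 ± 0.68 (adjusted p = 0.0120), with means in Ezh2cKO of 5.41 ± 3.0 CPM in Mx and 0.876 to 1.30 CPM elsewhere. Its difference was not called without either WT library, nor in the fit of the 23 libraries of E10.5. Grem1, an antagonist of BMP, rose in Mx (9.26 ± 3.29 CPM in Ezh2cKO, 2.01 ± 0.535 CPM in WT) but was not called in FNP, Md or PA2 (log2 fold changes -0.16, 0.80 and 0.81; difference 1.70 ± 0.35, adjusted p = 0.00939), and its difference was lost under 3 settings. Gsc differed by 2.73 ± 0.40 (adjusted p = 7.85e-05), with 11.96 ± 2.8 CPM in Ezh2cKO and 8.71 ± 1.0 CPM in WT of Md, where it is normally expressed. Dlx6as1, antisense to Dlx6 and not separable from it without strand, rose in Mx (log2 fold change 1.25) and in FNP (1.25) and fell in Md (-0.73) and PA2 (-0.79). Dlg2, a synaptic scaffold, and Dgkk, a diacylglycerol kinase, had differences of 1.36 and 1.34. Dlx3 and Tbx15 had smaller positive differences of 1.19 and 0.99. The differences of Dlx6as1 and Dgkk were not called without WT replicate 1 and WT replicate 2, in that order.

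Among smaller effects in Mx, Dlx2 fell in Mx, Md and PA2 (log2 fold changes -0.95, -0.64 and -0.58) and rose in FNP (3.37), where it averaged 1.25 ± 0.10 CPM in Ezh2cKO and 0.117 ± 0.014 CPM in WT. Its difference of -1.66 ± 0.25 (adjusted p = 8.26e-05) therefore contains the FNP value and does not set Mx apart from the other arch populations. Lhx6, at 108, 98.2 and 119 CPM in Ezh2cKO and 152 and 151 CPM in WT of Mx, was called higher in FNP and PA2 (2.31 and 1.80) and not in Md (-0.39). Onecut2, a neuronal and liver factor, rose in all 4, to 56.0 ± 11 CPM in Ezh2cKO against 20.5 ± 1.8 CPM in WT of Mx, and to 29.4 to 58.1 CPM in Ezh2cKO against 2.28 to 5.22 CPM in WT elsewhere. Its mean in Ezh2cKO Mx lay within the range of the other Ezh2cKO means, while both WT Mx libraries were above all other WT libraries of E10.5 (difference -2.15 ± 0.22, adjusted p = 3.69e-08). Nefm, a neurofilament of the sensory neuron list, had the same form, with 124 ± 47 CPM in Ezh2cKO and 83.1 ± 3.5 CPM in WT of Mx against 11.3 to 20.2 and 2.72 to 3.41 CPM elsewhere. The part of the neuronal RNA of WT Mx in these differences was not tested. Rxfp3, Sall3 and Tmem132b had negative differences of -1.88, -1.46 and -1.97, whose calls ended without WT replicate 1 for Rxfp3, without WT replicate 2 for Sall3 and under 5 settings for Tmem132b, the fit without Ezh2cKO replicate 3 among them. Erbb3, Tfap2c and Dlx1 had smaller negative differences of -1.19, -1.08 and -1.003.

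**Figure D5:**
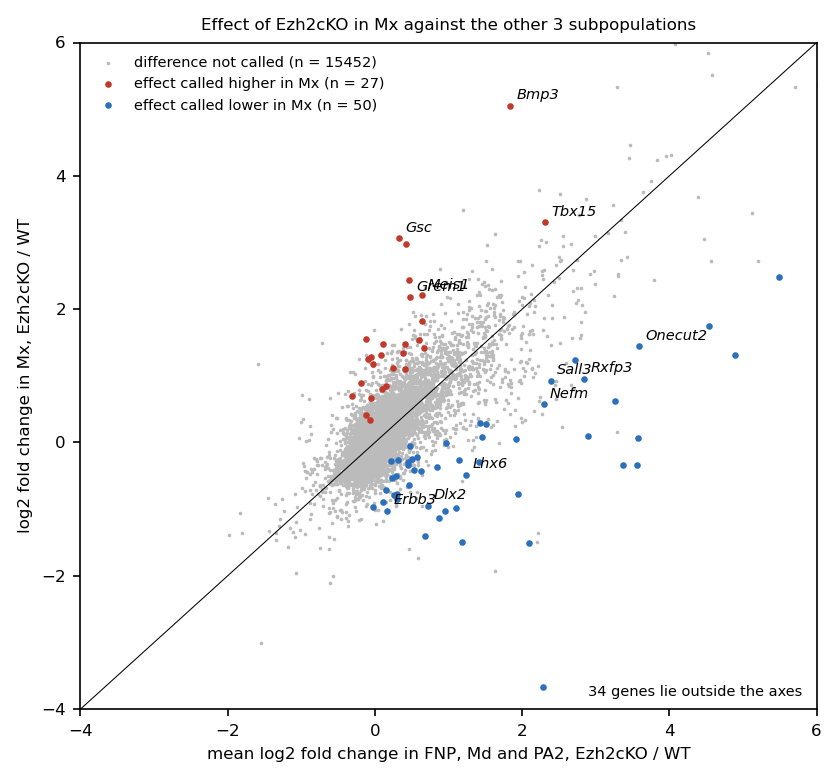
Each point is a gene of at least 1 CPM in Ezh2cKO or WT of Mx, with its mean log2 fold change in FNP, Md and PA2 on the horizontal axis and its log2 fold change in Mx on the vertical axis, Ezh2cKO over WT in each. The line marks equal effects, red and blue mark genes with a called difference, and 34 genes lie outside the axes. Bmp3, Gsc, Meis1 and Grem1 lie above the line, and Onecut2, Nefm, Dlx2 and Lhx6 below it.

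Genes that mark position at a later stage in WT embryos were set beside the comparison. Their libraries are not among the 5 compared, but they share its model, and so its gene filter, scaling and estimate of spread. Of 334 genes higher in WT PA2 at E11.5 (log2 fold change over 2 against the mean of the other 3), 30.5% were called higher in Ezh2cKO Mx, as were 25.6% of 176 genes of Md, 20.9% of 230 genes of FNP and 12.9% of 132 genes of Mx itself, beside 6.85% of all genes. With log2 fold change over 1, the shares were 28.1% of 878 genes of PA2, 29.7% of 437 of Md, 21.7% of 653 of FNP and 19.1% of 444 of Mx, so the order of PA2 and Md and the distance of Mx from FNP depended on the threshold. With log2 fold change over 2, called lower were 1.20%, 1.14%, 3.04% and 5.30% of the sets of PA2, Md, FNP and Mx. The median level of these sets in WT Mx at E10.5 was 0.106, 0.172, 0.275 and 0.435 CPM in the same order, the reverse of the order of the higher shares. Genes so near 0 in WT leave little room for a lower call. The PA2 set also holds Hoxb3 and Hoxb3os. The part of these levels in the shares was not tested. The exact 95% binomial intervals of the higher shares run from 25.6% to 35.8% for PA2 and from 7.68% to 19.8% for Mx, and cover counting error over genes, which are not independent. Of 735 genes higher in E8.5 progenitors (log2 fold change over 3), 18.2% were called higher and 2.04% lower. This set had a median of 0.201 CPM in WT Mx at E10.5 and holds Zic1, Zic2, Zic5 and Hoxc8, already given above. The part of these in its shares was not tested.

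Some of the raised genes are part of the normal maxillary programme a day later. In WT Mx at E11.5, Tbx15 averaged 148 CPM, Tbx18 35.1 CPM, Osr2 55.1 CPM and Bmp3 9.17 CPM, each above its mean in Ezh2cKO Mx at E10.5, 69.4, 6.996, 12.7 and 5.41 CPM. Zic1, Hoxa10 and Hoxd13 stood at 0.0314, 0 and 0 CPM in the same E11.5 libraries. Not all Hox genes were near 0 there. The 12 anterior genes summed to 2.84 to 3.75 CPM, of which Hoxd1, uncalled in Ezh2cKO, averaged 2.94 CPM. The 27 posterior genes summed to 0.368 to 0.700 CPM. Of the 1409 genes called higher, 460 (32.6%) lay under 1 CPM in WT Mx at E11.5, beside 27.4% of all genes tested. These levels are set side by side, and no test was made between the stages.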

How the data were processed

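RNA of sorted mouse cranial neural crest cells was sequenced as unstranded single-end reads of 50 bases, per the labels' protocols; bcl2fastq 2.17 is named in the submitters' processing notes. The authors deposited whole-number counts per gene for GRCm38; no aligner, counter or annotation is named (not given in the sources used here). All 47 libraries in 16 groups entered 1 edgeR 4.0.16 quasi-likelihood model (R 4.3.3) with 1 mean for each group, TMM factors and filterByExpr (minimum count 10, minimum total 15), leaving 20560 of 38215 genes and 31 residual degrees of freedom. Genes were called at a Benjamini-Hochberg adjusted p under 0.05. CPM use TMM-scaled totals, and the floor is 3 counts. SE is the absolute log2 fold change over the square root of F. Named genes were Ezh2, Zic1, the 12 called genes of largest fold in each direction that have a named symbol (no Gm or Rik symbol or similar clone name, no pseudogene), reach 5 CPM in the group where they are higher and do not overlap between libraries, up to 4 called and 2 uncalled members per list, and, by the same conditions, 6 per direction for the difference of effects. The members and lists were chosen with earlier results of these data known. Some genes are not reported here and were left out of the lists, their counts and sums. The script was tested on simulated data. Alternatives were RLE scaling, 2 other filters, no mitochondrial genes, fits on 23 or 5 libraries, each Mx library left out, a replicate block and DESeq2 1.42.0. Other groups were not analysed here beyond the comparisons given.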

Additional observations from a re-analysis of the deposited data

Results flagged for a closer look

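The effect of Ezh2cKO in Mx differed from the mean effect in FNP, Md and PA2 by the test of that difference (edgeR, adjusted p under 0.05) for 19 of the genes named. The difference of log2 effects was positive for Bmp3 (3.22), Gsc (2.73), Grem1 (1.70), Meis1 (1.57), Dlg2 (1.36), Dlx6as1 (1.34), Dgkk (1.34), Dlx3 (1.19) and Tbx15 (0.99). It was negative for Onecut2 (-2.15), Tmem132b (-1.97), Rxfp3 (-1.88), Lhx6 (-1.72), Nefm (-1.72), Dlx2 (-1.66), Sall3 (-1.46), Erbb3 (-1.19), Tfap2c (-1.08) and Dlx1 (-1.003). Dlx1 and Dlx2 are near 0 in WT FNP, and Erbb3 is a glial marker whose list is more abundant in Mx than elsewhere; the part of these in the differences was not tested.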

How the results depend on the processing

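Ezh2, Zic1 and all other genes called in Mx kept their sign under the 13 alternatives. Higher calls in Mx numbered 1409, and 2196 in the fit of 23 libraries; leaving out 1 library gave 598 to 1440. Lower calls numbered 702, against 303 with no filter on low counts and 124 to 589 with 1 library left out. For the difference of effects, 29 larger effects became 56 with no filter, 80 with 23 libraries, 53 with the replicate block, 63 with DESeq2 and 8 to 55 with 1 library left out, and 50 smaller effects became 78 with 23 libraries and 21 to 44 with 1 library left out. Over all list members, 104 higher calls became 67 to 101 with 1 library left out, and 15 lower calls became 24 in the fit of 5 libraries and 7 to 14 with 1 library left out. A lone WT library was assumed to vary like the other groups. The replicate numbers are only shared: over 11219 genes and 2 pairs the deviations correlated at 0.153, and the block gave 1403 higher and 556 lower calls in Mx. The causes were not tested. Each gene whose estimate changed sign was uncalled in both fits, with log2 fold changes as follows. Id2 had 0.024, against -0.085 to 0.14 with 1 library left out. Ptch1 had 0.0047, against -0.045 to 0.057 with 1 library left out. Col2a1 had -0.0080, against 0.020 with RLE scaling, 0.032 with no filter, 0.018 with minimum count 50, 0.0075 with no mitochondrial genes, 0.045 with 23 libraries, 0.028 with 5 libraries, 0.020 with DESeq2, -0.040 to 0.023 with 1 library left out. Csf1r had -0.024, against 0.0046 with RLE scaling, 0.016 with no filter, 0.0014 with minimum count 50, 0.029 with 23 libraries, 0.012 with 5 libraries, 0.050 with the replicate block, 0.0043 with DESeq2, -0.085 to 0.051 with 1 library left out. Cbx2 had 0.022, against -0.029 with the replicate block, -0.029 to 0.059 with 1 library left out. Egfl7 had 0.28, against -0.0025 to 0.61 with 1 library left out. Zmat3 had 0.041, against -0.00089 to 0.086 with 1 library left out. Laptm5 had 0.21, against -0.044 with the replicate block, -0.023 to 0.43 with 1 library left out. Mki67 had 0.039, against -0.0057 to 0.064 with 1 library left out. Cdh5 had 0.47, against -0.16 to 0.77 with 1 library left out. Alx4 had 0.078, against -0.14 to 0.34 with 1 library left out. Neurog1 had -0.19, against 0.0061 with the replicate block, -0.48 to 0.078 with 1 library left out. Jun had -0.0055, against 0.024 with RLE scaling, 0.035 with no filter, 0.020 with minimum count 50, 0.010 with no mitochondrial genes, 0.048 with 23 libraries, 0.030 with 5 libraries, 0.045 with the replicate block, 0.024 with DESeq2, -0.072 to 0.064 with 1 library left out. Kdm5d had -0.19, against -0.96 to 0.13 with 1 library left out. Xist had -0.026, against 0.0024 with RLE scaling, 0.011 with no filter, 0.024 with 23 libraries, 0.0061 with 5 libraries, 0.0023 with DESeq2, -0.62 to 0.39 with 1 library left out. Cdkn2d had -0.076, against -0.18 to 0.046 with 1 library left out.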
